A study of Mus musculus with 5 samples.

Results

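Doxorubicin was set against Compound C, gene by gene, in mouse embryonic fibroblasts that carry the R284S form of STING, a gain-of-function variant. The comparison used 2 of the 5 arrays of the series, the array of cells given doxorubicin and the array of cells given Compound C, and the difference is log2 signal with doxorubicin minus log2 signal with Compound C. Genes entered through a probe set with a single symbol in the platform annotation, the brightest on average where a gene had several, and through a filter on dim signal. To pass, a gene needed 1 value at or above the midpoint of the array it came from (5.37 to 5.44), which kept 12317 of 22180 genes. Just inside the filter, 5033417F24Rik had a highest log2 signal of 5.38, and just outside it 9030612E09Rik had 5.37.

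Compound C, known also as dorsomorphin, blocks the energy-sensing kinase AMPK and the type I receptors for bone morphogenetic proteins (BMPs), and it reaches further kinases as well. Doxorubicin is an anthracycline that intercalates into DNA, traps topoisomerase II on broken strands and can displace histones. STING passes the signal of cytosolic DNA to the kinase TBK1 and the transcription factor IRF3, which switch on type I interferon, and interferon in turn drives a large set of antiviral effector genes.

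Every array came from STING-/- fibroblasts given back the STING R284S variant, so the genotype was shared by all groups and no cells with wild-type STING enter here. Cells were exposed for 9 hours to Compound C, doxorubicin, the AKT inhibitor GSK 690693, tofacitinib or vehicle, and 300 ng of total RNA from 1 sample per treatment went to 1 array. Doses were not stated in the labels used here. The submitters present the treatments as AMPK inhibitors, and the labels give the cell type as primary MEF cells. With 1 array on each side there is no replicate, so no test, error or p-value is given, and a difference between these 2 arrays may be technical. "Higher" and "lower" below mean the reading with doxorubicin relative to Compound C unless another array is named.

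The fibroblast label held against its markers. All 11 fibroblast markers passed the filter, from 6.02 to 12.49 log2 units with Compound C and from 6.50 to 12.68 with doxorubicin, and their summed log2 signal was 102.36 and 105.85. Some markers of other cell types also reached the filter. Of the 6 macrophage markers 2 passed, Csf1r and Cd68, with a summed log2 signal over the 6 of 27.57 with Compound C and 28.92 with doxorubicin, and Ptprc, Adgre1, Itgam and Lyz2 were below the filter on all 5 arrays. Of the 5 endothelial markers 2 passed, Cdh5 and Kdr (the 5 had a median of 4.86 with Compound C and 5.31 with doxorubicin), of the 5 epithelial ones 3, Cdh1, Krt8 and Krt18 (summed signal 25.32 and 25.26), and of the 5 skeletal muscle ones 4, with Acta1 the brightest at 9.59 and 10.09 (31.09 and 31.06). The neural list had 3 of 5 at the filter, with Nes at 7.88 and 8.53 (30.23 and 31.49), and the adipocyte list 2 of 4, with Fabp4 at 6.96 and 7.88 (20.24 and 21.46). Pecam1, Tek, Emcn, Epcam and Adipoq were below the filter on all 5 arrays. The part of such cells in the differences was not tested.

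The doxorubicin and Compound C arrays lay further apart than any other pair of the 5 arrays. Over the tested genes the log2 difference had a standard deviation of 0.656, against 0.258 for the closest pair, GSK 690693 and tofacitinib. Because each array reads bulk RNA, fewer cells of a kind and less of a transcript per cell cannot be told apart. At 2-fold or more, 300 genes read higher with doxorubicin, 2.44% of those tested, and 963 read lower, 7.82%. The median gene lay at 0.13, so the bulk of genes sat slightly on the doxorubicin side while the lower tail was long: 5% of genes were at -1.27 or below and 5% at 0.85 or above. Taking that median off every difference, an alternative chosen after seeing the data, left 146 higher and 1200 lower genes, and the share of higher genes among those 2-fold apart went from 23.8% to 10.8%. The lower genes were spread over the range of brightness: 4.67% of genes with a mean under 6 were 2-fold lower, 10.7% of those from 6 to 8, 7.75% of those from 8 to 10 and 14 of 874 brighter ones.

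**Figure D1:**
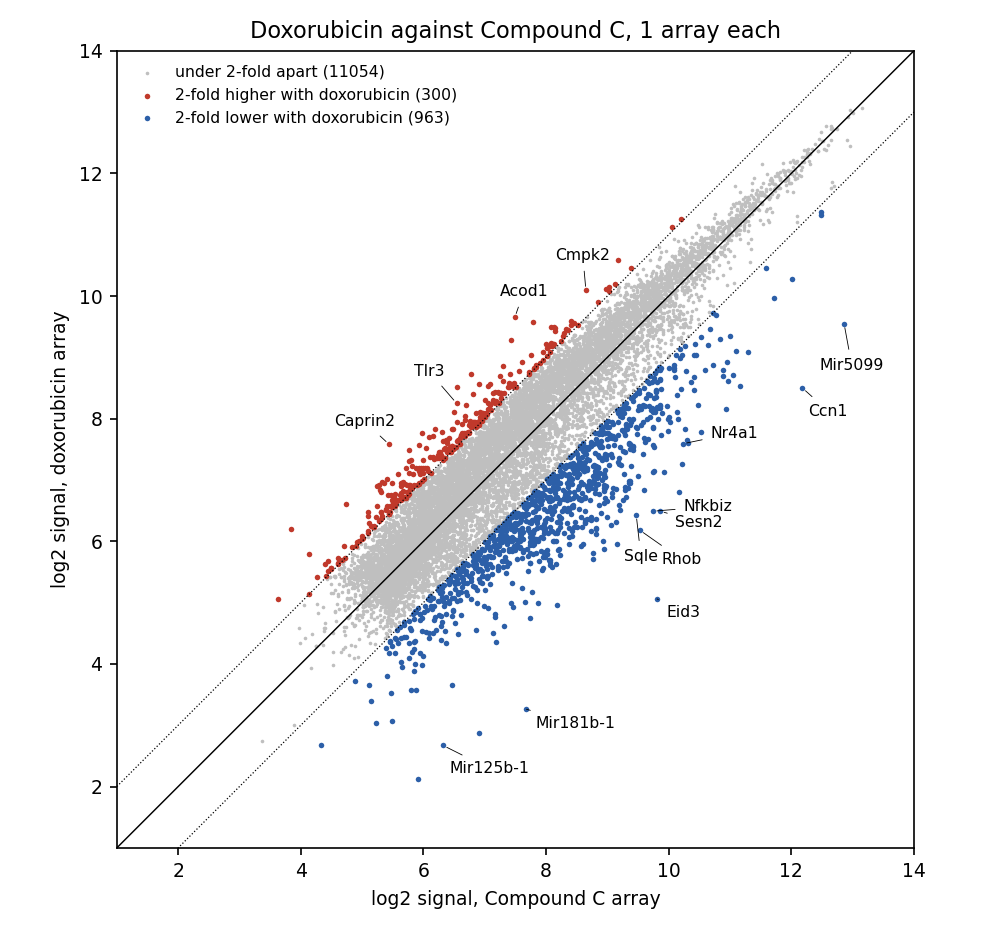
Log2 signal of each tested gene on the Compound C array (horizontal) and the doxorubicin array (vertical), with the line of equality and dotted lines at 2-fold. The 963 lower genes (blue) reach further from the line than the 300 higher genes (red), out to Eid3 at a difference of -4.75.

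The other arrays show which of the pair stood apart for a given gene. Of the 963 lower genes, doxorubicin gave the lowest of the 5 readings for 916 (95.1%), Compound C gave the highest for 656 (68.1%), and both held for 609 (63.2%). Over all tested genes these shares were 25.3%, 18.4% and 9.12%, and choosing genes with doxorubicin below Compound C raises them by itself. Set against vehicle at 1.5-fold, 613 of the 963 were counted for doxorubicin only, 146 for Compound C only, and 189 for both, in opposite directions. These counts have no separate class for genes on the same side of vehicle on both arrays, such as Id3. A gene counted for 1 compound may therefore differ from vehicle with the other too. The higher genes were placed otherwise: of the 300, Compound C gave the lowest reading for 258 (86.0%) and doxorubicin the highest for 191 (63.7%), where all tested genes had 28.7% and 35.7%. Against vehicle at 1.5-fold, 169 were counted for Compound C only and 99 for doxorubicin only. These counts too have no separate class for genes on the same side of vehicle on both arrays, such as Trim30d. Choosing genes with doxorubicin above Compound C raises the shares of the 300 by itself too. As a description of the genes so chosen, most lower genes were low with doxorubicin, and most higher genes were low with Compound C. Both comparisons with vehicle use the same vehicle array, which enters the position of every gene.

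The 15 named genes furthest to the doxorubicin side included an enzyme, a surface receptor and a chemokine. Acod1, the enzyme that makes itaconate, had log2 signals of 7.49 with Compound C and 9.65 with doxorubicin, against 9.30 with vehicle, 8.58 with GSK 690693 and 8.91 with tofacitinib, so it was 4.47-fold higher on the doxorubicin array, and the Compound C reading was the lowest of the 5. Plaur, the urokinase receptor, read 7.42 with Compound C, 9.28 with doxorubicin and 8.85 with vehicle (3.63-fold higher). Cxcl3, a chemokine that draws neutrophils, read 5.97 with Compound C, 7.76 with doxorubicin and 6.63 with vehicle (3.46-fold higher). For Plaur the gap came mostly from a low reading with Compound C, while Cxcl3 lay above vehicle with doxorubicin and below it with Compound C.

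Other genes of this end followed the first pattern. Tlr3, the endosomal sensor of double-stranded RNA, stood at 6.54 with Compound C and 8.25 with doxorubicin, against 8.38 with vehicle, 7.48 with GSK 690693 and 7.04 with tofacitinib, and doxorubicin was close to vehicle. Ccn4, a matricellular protein of the WNT response, read 7.78 with Compound C, 9.58 with doxorubicin and 9.66 with vehicle; Alkal1, a ligand of the receptors ALK and LTK, 6.54 with Compound C, 8.51 with doxorubicin and 8.39 with vehicle; and Gfra2, a co-receptor for neurturin, 5.76 with Compound C, 7.49 with doxorubicin and 7.62 with vehicle. In these genes doxorubicin lay within 0.13 of vehicle and Compound C lay at least 1.84 below it. Caprin2, which encodes an RNA-binding protein, went the other way and read 5.63 with vehicle, 6.09 with tofacitinib, 5.66 with GSK 690693, 5.44 with Compound C and 7.58 with doxorubicin: here Compound C was near vehicle and doxorubicin stood alone, 4.41-fold higher than Compound C. The remaining genes of the 15 were Cdh10, Fam136a, Zfp458, Dhrs9, Ankrd27, Galnt11 and Serinc5, with log2 differences from 1.64 to 1.95.

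At the other end, the largest difference of any tested gene belonged to Eid3, which encodes a relative of the NSE4 subunit of the SMC5/6 complex and an inhibitor of p300. Its log2 signal was 9.81 with Compound C and 5.06 with doxorubicin, against 5.47 with vehicle, 5.63 with GSK 690693 and 5.59 with tofacitinib. Only the Compound C array was high, and the gene was 26.9-fold lower with doxorubicin. Eid3 lies within the span of Txnrd1, the thioredoxin reductase gene, in RefSeq's annotation of GRCm38.p6, and Txnrd1 itself differed by -0.40. Tmem236 had the same shape at a lower level, 7.87 with Compound C, 5.0 with doxorubicin and 4.95 with vehicle. It reached the filter with Compound C alone, so its high reading there is also what let it pass.

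For most of the other 15 lowest genes, the doxorubicin array was the low one. Ccn1, a matricellular protein and a classical target of YAP and SRF, had 12.18 with Compound C and 8.50 with doxorubicin, against 12.05 with vehicle, 12.09 with GSK 690693 and 11.97 with tofacitinib. The 4 arrays without doxorubicin lay between 11.97 and 12.18, and doxorubicin was 12.8-fold lower than Compound C. Rhob, a small GTPase of the actin cytoskeleton, had 9.75 with vehicle, 9.92 with tofacitinib, 10.05 with GSK 690693, 9.53 with Compound C and 6.18 with doxorubicin, again with doxorubicin alone apart. Ifrd1, a transcriptional co-regulator, read 10.16 with Compound C, 6.80 with doxorubicin and 9.45 with vehicle; Nfkbiz, the nuclear inhibitor-like protein IkB zeta, 9.74 with Compound C, 6.49 with doxorubicin and 9.25 with vehicle; and Arrdc3, an alpha-arrestin, 8.17 with Compound C, 4.96 with doxorubicin and 7.31 with vehicle.

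In a further set the readings lay on either side of vehicle. Sesn2, which restrains mTORC1 when leucine is scarce, read 9.86 with Compound C and 6.49 with doxorubicin, against 8.83 with vehicle, 8.30 with GSK 690693 and 8.62 with tofacitinib, and was 10.3-fold lower with doxorubicin. Sqle, the squalene epoxidase of cholesterol synthesis, read 9.47 with Compound C, 6.43 with doxorubicin and 7.96 with vehicle (8.22-fold lower). Gadd45b, a stress-induced protein, read 10.22 with Compound C, 7.26 with doxorubicin and 8.93 with vehicle (7.78-fold lower). Each was highest of the 5 with Compound C and lowest with doxorubicin, as were Pcf11, a subunit of the machinery that cleaves pre-mRNA 3' ends (-3.07), and Zfp292 (-3.20). Ddit4, Cebpb and Oser1 complete the 15. For Oser1 the second probe set, below the filter on all 5 arrays, differed by -0.40, against -2.95 for the brighter one.

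Genes for small RNAs fell outside the rule by which genes are named, and those given here were chosen after their values were seen. They are shown because their differences were among the largest on the arrays and because the mature sequences let the loci be recognised. Of 97 tested miRNA genes, doxorubicin read at least 2-fold lower in 14 and higher in 0, and the median was -0.25. Over all tested genes 7.82% were 2-fold lower and 2.44% higher, with a median of 0.13. The probe sets interrogate the miRNA locus, and whether they record the mature form, the hairpin or the longer primary transcript is unknown. Mature sequences follow from RefSeq (GRCm38.p6), all encoded on the plus strand, 5' to 3', with the seed (bases 2 to 8) in capitals.
mmu-miR-181a-5p, chr1:137966468-137966490: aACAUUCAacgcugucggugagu
mmu-miR-181b-5p, chr1:137966650-137966673: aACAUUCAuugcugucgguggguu
mmu-miR-125b-5p, chr9:41581940-41581961: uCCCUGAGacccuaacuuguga
mmu-miR-34a-5p, chr4:150068473-150068494: uGGCAGUGucuuagcugguugu

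The first pair share the seed ACAUUCA, and their hairpins lie 97 bases apart on chromosome 1. Mir181b-1 read 7.68 with Compound C and 3.26 with doxorubicin, against 3.62 with vehicle, 4.08 with GSK 690693 and 3.77 with tofacitinib, and Mir181a-1 read 2.15 with vehicle, 2.23 with tofacitinib, 1.84 with GSK 690693, 5.91 with Compound C and 2.13 with doxorubicin. Both were high on the Compound C array alone, with doxorubicin within 0.36 of vehicle, and the neighbours differed by -4.42 and -3.78 log2 units. Mir34a, whose product carries the seed GGCAGUG and whose gene is a known p53 target, had the same shape at a smaller size and read 5.65 with Compound C and 3.95 with doxorubicin, against 4.06 with vehicle, 3.82 with GSK 690693 and 3.71 with tofacitinib (-1.70). Mir125b-1, with the seed CCCUGAG, had the opposite one: it read 6.32 with Compound C and 2.67 with doxorubicin, against 6.53 with vehicle, 6.16 with GSK 690693 and 6.34 with tofacitinib, and doxorubicin alone was low (-3.65). Mir5099 likewise read between 12.84 and 12.91 on 4 arrays and 9.55 with doxorubicin. Mir181b-1, Mir181a-1 and Mir34a reached the filter with Compound C alone, so the filter itself selected genes high on that array. Their readings on the other 4 arrays, and that of Mir125b-1 with doxorubicin, are below the filter and may be partly background, so the sizes of these differences are uncertain.

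The 36 gene lists that could be summarised spread from a median of -1.23 to 0.52, and all tested genes had a median of 0.13 with 15.4% of them higher by 1.5-fold or more and 14.9% lower. Of all 12317 tested genes 7414 lay above 0 and 4812 below, to be set beside such counts of list members. Interferon-stimulated effectors and the early IRF3 and chemokine genes stood at the doxorubicin end. Immediate early factors, MAP kinase phosphatases, clock genes and FOXO targets stood at the Compound C end. With the median of all genes taken off, 9.49% of all tested genes were 1.5-fold higher and 17.9% lower, and list counts that moved by over 1.5 times are given with both values. Lists overlap, so 1 gene can count in several.

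**Figure D2:**
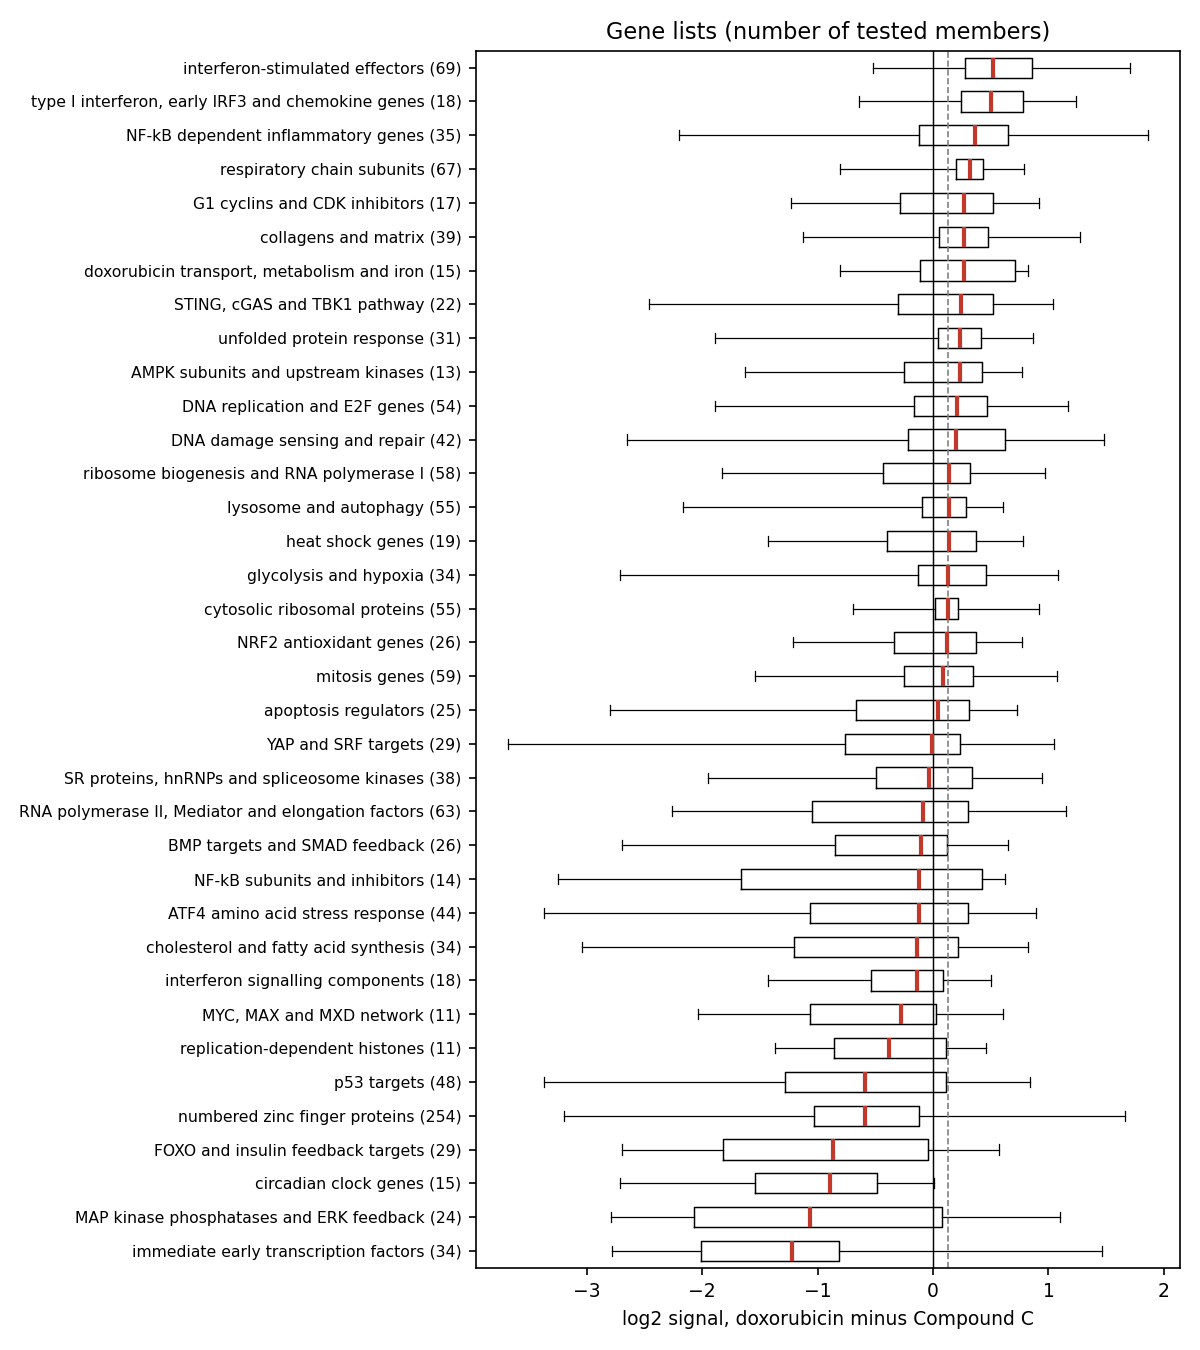
Log2 difference, doxorubicin minus Compound C, over the tested members of each gene list, with the number of members in parentheses: box, quartiles; red line, median; whiskers, lowest and highest member. The dashed line is the median of all tested genes, 0.13, and the lists run from interferon-stimulated effectors at 0.52 down to immediate early transcription factors at -1.23.

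Interferon-stimulated effectors, the antiviral genes driven by interferon, read higher with doxorubicin than with Compound C. Of the 69 tested members, 29 were at least 1.5-fold higher and 0 lower, 13 were 2-fold higher, and 60 lay above 0, with a median of 0.52 against 0.13 for all genes. After taking off the median of all genes the list had 25 higher and 1 lower members and a median of 0.39. On the 5 arrays the members' median log2 signal was 8.62 with doxorubicin, 8.38 with vehicle, 8.05 with Compound C, 7.88 with GSK 690693 and 7.58 with tofacitinib, an inhibitor of the JAK kinases that interferon receptors use. Member by member, the median difference from vehicle was -0.04 with doxorubicin and -0.48 with Compound C, so doxorubicin lay near vehicle and Compound C below it; both use the same vehicle array.

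Among single effectors, Cmpk2, a mitochondrial nucleotide kinase next to Rsad2 in the genome, read 10.22 with vehicle, 9.53 with tofacitinib, 8.49 with GSK 690693, 8.65 with Compound C and 10.09 with doxorubicin (2.71-fold higher). Rsad2, which makes the antiviral nucleotide ddhCTP, read 9.38 with Compound C, 10.46 with doxorubicin and 10.77 with vehicle (2.11-fold higher). Both were close to vehicle with doxorubicin and lower with Compound C. Dhx58, which encodes the RNA sensor LGP2, read 6.38 with Compound C, 7.65 with doxorubicin and 7.16 with vehicle, and Oas2, a synthetase of 2-5A, read 6.63 with Compound C, 7.91 with doxorubicin and 7.39 with vehicle, so for this pair doxorubicin was above vehicle and Compound C below it. Trim30a read 3.62 with Compound C, 5.06 with doxorubicin and 5.79 with vehicle and Trim30d 5.24 with Compound C, 6.58 with doxorubicin and 7.90 with vehicle, and Trim30a was below the filter on both compared arrays. These neighbouring relatives have similar sequences, so a probe set may pick up more than 1 of them. Other bright effectors differed less than Cmpk2 and Rsad2: Isg15, a ubiquitin-like modifier, read 10.07 with Compound C, 10.40 with doxorubicin and 10.71 with vehicle, and Ifit1, which binds viral RNA caps, read 10.72 with Compound C, 11.13 with doxorubicin and 11.61 with vehicle, which are 1.26-fold higher and 1.33-fold higher.

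**Figure D3:**
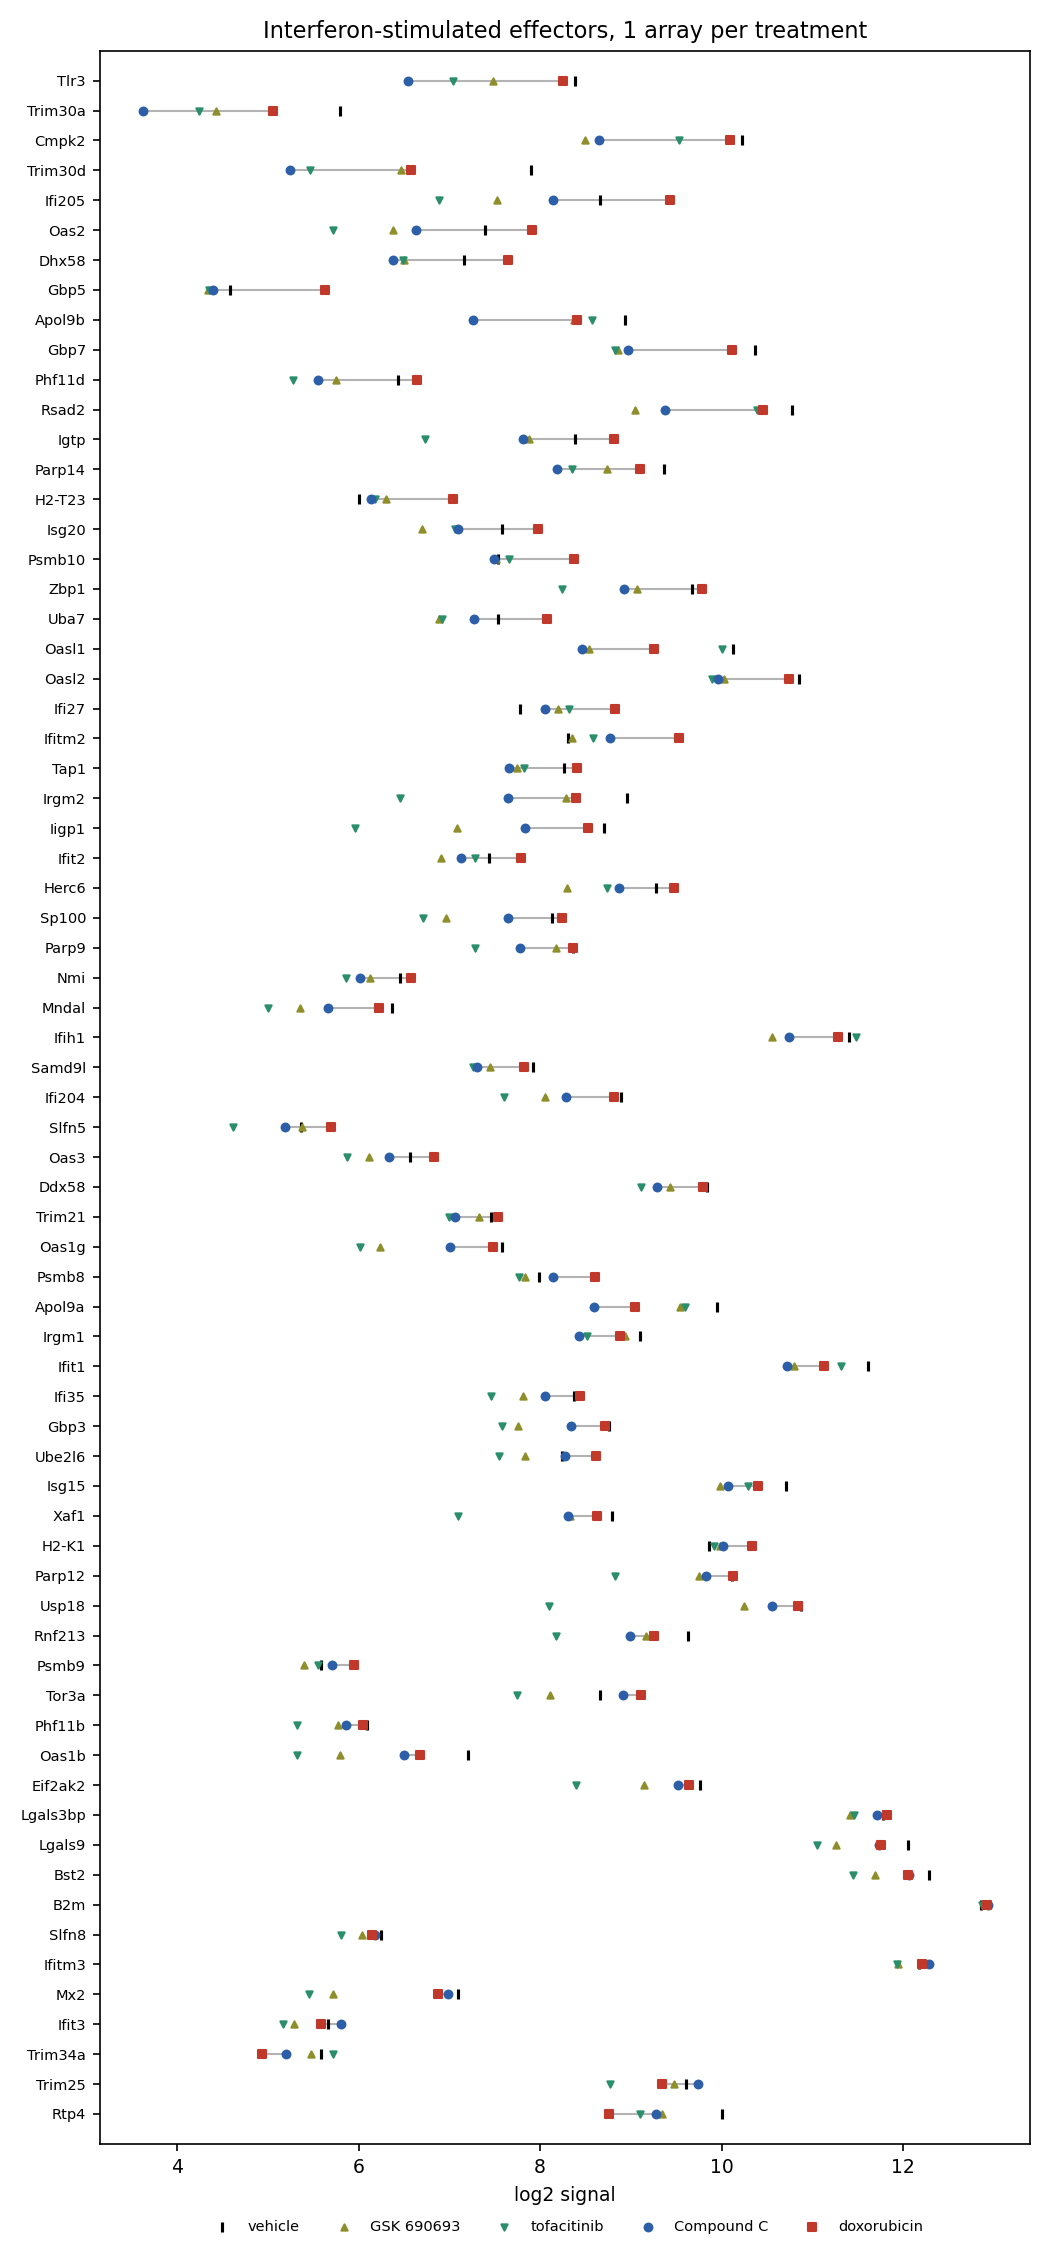
Log2 signal of the 69 tested interferon-stimulated effectors on each array, ordered by the difference between doxorubicin (red squares) and Compound C (blue circles), which a grey line joins; black ticks, vehicle; triangles, GSK 690693 and tofacitinib. For 60 genes the red square lies to the right of the blue circle, from Tlr3 with a difference of 1.71 downward.

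The genes that IRF3 and NF-kB switch on directly, with the chemokines, gave a like picture. Of 18 tested members 8 were at least 1.5-fold higher and 1 lower, with a median of 0.50 and several members shared with the effectors above. The higher count went from 8 to 5 with the median of all genes taken off. Cxcl10, the chemokine that attracts activated T cells, read 11.52 with Compound C and 12.16 with doxorubicin, against 12.47 with vehicle, 12.0 with GSK 690693 and 12.26 with tofacitinib, 1.56-fold higher with doxorubicin. Ccl7 read 11.08 with Compound C, 11.79 with doxorubicin and 11.85 with vehicle, and Ccl3, dimmer, 5.31 with Compound C, 6.47 with doxorubicin and 5.70 with vehicle. Ccl5, which sits near the top of the scale, read 12.95 with Compound C and 13.03 with doxorubicin, and a difference could be compressed there. Ifnb1, interferon beta itself, was below the filter on all arrays, with 2.88 and 2.56. The single lower member was Ifna4 (-0.64), 1 of a family of near-identical genes that probes may not tell apart.

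Of the 18 tested components that carry the interferon signal, 0 were 1.5-fold higher and 3 lower (16.7%, close to the 14.9% of all tested genes), with a median of -0.14. With the median of all genes taken off, 6 were lower. Irf7, which amplifies interferon output, read 9.88 with Compound C, 10.38 with doxorubicin and 9.88 with vehicle. Irf1 read 6.19 with Compound C, 5.30 with doxorubicin and 6.35 with vehicle, Irf2 8.27 with Compound C, 7.09 with doxorubicin and 8.26 with vehicle, and Socs3, a feedback inhibitor, 7.44 with Compound C, 6.01 with doxorubicin and 6.91 with vehicle, with -0.62 at its other probe set, which was below the filter on all 5 arrays.

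The element that interferon-activated factors bind was looked for in the promoters of the effector genes, and a few windows that hold it are printed so that it can be seen. The letters GAAANNGAAA (the ISRE, either strand) were sought in the 250 bases before each RefSeq start. They occurred in 30 of 67 effector windows (44.8%) against 2.54% of 12331 windows of all tested genes. Effectors at least 1.5-fold higher held it in 12 of 29 windows (41.4%) and the others in 18 of 38 (47.4%). In these 60-base windows (GRCm38.p6, written 5' to 3' on the gene's own strand) the matches are in capitals.
Ifit1, chr19:34640760-34640819, plus strand: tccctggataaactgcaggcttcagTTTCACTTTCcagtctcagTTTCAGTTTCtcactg
Cxcl10, chr5:92349068-92349127, minus strand: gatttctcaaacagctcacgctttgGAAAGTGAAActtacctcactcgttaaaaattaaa
Rsad2, chr12:26456538-26456597, minus strand: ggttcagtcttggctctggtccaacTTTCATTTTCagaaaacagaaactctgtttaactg
Gbp7, chr3:142530258-142530317, plus strand: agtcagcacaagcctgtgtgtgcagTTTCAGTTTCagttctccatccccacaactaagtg

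Ifit1 has a pair of matches and the smallest difference of these genes. Gbp7, a guanylate-binding GTPase, differed by 1.14 and Rsad2 by 1.08, and each has a single match. Cmpk2 and Tlr3, which differed more, have no match to these letters in the window. Gbp7 was picked for its match after values were seen. A match is a description of the sequence and not a binding site shown in these cells.

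In the STING pathway itself, some genes were lower and others higher. Tbk1, the kinase that STING recruits, read 8.85 with Compound C and 7.19 with doxorubicin, against 8.74 with vehicle, 9.06 with GSK 690693 and 8.69 with tofacitinib, 3.16-fold lower with doxorubicin. Cgas, the sensor that makes cGAMP, read 6.34 with Compound C, 4.95 with doxorubicin and 6.41 with vehicle, Traf6, a ubiquitin ligase that links receptors to NF-kB, 8.50 with Compound C, 6.24 with doxorubicin and 7.65 with vehicle, and Trim32, a ubiquitin ligase of STING, 8.07 with Compound C, 5.61 with doxorubicin and 7.34 with vehicle. All of them were lowest with doxorubicin. Ikbke, the inducible relative of Tbk1, stood on the other side and read 6.73 with Compound C, 7.77 with doxorubicin and 6.99 with vehicle (2.06-fold higher), and Irf3 differed little, at 6.42 and 6.65. Counted together, 3 of 22 members were at least 1.5-fold higher (13.6%) and 5 lower (22.7%), with a median of 0.24. Over all tested genes the shares were 15.4% and 14.9%. Sting1 was below the filter, at 5.13 and 5.25, and its probe set may lie outside the introduced sequence.

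Several NF-kB inhibitors and subunits were lower with doxorubicin, while part of the inflammatory targets of NF-kB were higher. Nfkbia, the inhibitor IkB alpha, read 10.26 with vehicle, 10.31 with tofacitinib, 10.12 with GSK 690693, 9.38 with Compound C and 7.22 with doxorubicin (4.47-fold lower). Tnfaip3, which encodes the deubiquitinase A20, read 8.65 with Compound C, 7.43 with doxorubicin and 9.15 with vehicle. Rel read 7.99 with Compound C, 6.18 with doxorubicin and 7.69 with vehicle and Bcl3 8.54 with Compound C, 6.52 with doxorubicin and 8.45 with vehicle. These genes, with Nfkbiz, were the 5 of 14 that were at least 1.5-fold lower; 1 was higher, Ikbkg (0 with the median of all genes taken off), and the median was -0.12. Of 35 inflammatory targets, 10 were higher (28.6%) and 5 lower (14.3%), against 15.4% and 14.9% of all tested genes, and the list median was 0.36.

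The higher targets included cytokines, enzymes and surface proteins. Il1a, an alarmin cytokine, read 5.99 with Compound C and 7.33 with doxorubicin, against 7.02 with vehicle, 6.36 with GSK 690693 and 6.34 with tofacitinib (2.53-fold higher). Nos2, the inducible nitric oxide synthase, read 6.76 with Compound C, 7.96 with doxorubicin and 7.34 with vehicle, Plau, urokinase, 8.08 with Compound C, 9.50 with doxorubicin and 8.94 with vehicle, and the receptor Cd40 6.83 with Compound C, 7.95 with doxorubicin and 7.20 with vehicle. In each, Compound C lay below vehicle and doxorubicin above it. Il6 differed by 0.28 only. The lower targets included Ier3 (-2.20), the survival gene Bcl2l1 (-1.71) and the cytokine Lif (-1.51).

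Immediate early transcription factors, the genes that growth factors and stress induce within minutes, lay furthest to the Compound C side. Of 34 tested members 27 read lower by 1.5-fold or more and 2 higher, 23 were 2-fold lower, and the median was -1.23 against 0.13 for all genes. Fosl2, an AP-1 subunit, read 10.94 with Compound C and 8.16 with doxorubicin, against 10.08 with vehicle, 10.02 with GSK 690693 and 9.84 with tofacitinib (6.87-fold lower). Myc, the growth regulator, read 9.77 with vehicle, 9.41 with tofacitinib, 9.58 with GSK 690693, 8.72 with Compound C and 6.68 with doxorubicin, low with doxorubicin and intermediate with Compound C. Junb read 8.86 with Compound C, 6.77 with doxorubicin and 8.19 with vehicle, Klf4 7.88 with Compound C, 5.68 with doxorubicin and 7.49 with vehicle and Cited2, a CBP/p300 partner, 11.17 with Compound C, 8.54 with doxorubicin and 11.65 with vehicle. Doxorubicin gave the lowest of the 5 readings for 22 of the 34 members, and Compound C the highest for 13, against 25.3% and 18.4% of all tested genes.

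The Nr4a nuclear receptors, orphan receptors of the same induction class, all read highest with Compound C. Nr4a1 read 10.23 with Compound C and 7.59 with doxorubicin, against 8.42 with vehicle, 7.72 with GSK 690693 and 8.54 with tofacitinib. Nr4a2 read 9.80 with Compound C and 8.45 with doxorubicin, against 8.47 with vehicle, 7.42 with GSK 690693 and 7.98 with tofacitinib, and Nr4a3 read 5.72 with vehicle, 5.37 with tofacitinib, 5.0 with GSK 690693, 7.12 with Compound C and 6.31 with doxorubicin. The 3 genes were 6.23-, 2.55- and 1.75-fold lower with doxorubicin, which for Nr4a2 was level with vehicle.

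The phosphatases and feedback inhibitors of MAP kinase signalling followed the immediate early genes. At 1.5-fold 15 of 24 members were lower and 2 higher, and the median was -1.07. Dusp1, which dephosphorylates p38 and JNK, read 9.19 with Compound C and 6.59 with doxorubicin, against 9.96 with vehicle, 10.04 with GSK 690693 and 9.72 with tofacitinib (6.06-fold lower). Errfi1, an inhibitor of the EGF receptor, read 9.26 with Compound C, 6.68 with doxorubicin and 9.74 with vehicle, and Spry2, a Sprouty inhibitor of ERK signalling, 8.04 with Compound C, 5.70 with doxorubicin and 7.68 with vehicle. Dusp6, the ERK phosphatase, read 9.06 with Compound C and 6.27 with doxorubicin at its brighter probe set. Its other probe set stayed between 3.30 and 3.42, below the filter on all 5 arrays, and bears on neither direction.

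BMP targets gave a different arrangement, with both compounds below vehicle. Id3, an inhibitor of basic helix-loop-helix factors that BMP receptors induce through SMAD1 and SMAD5, read 7.74 with Compound C and 5.94 with doxorubicin, against 8.98 with vehicle, 9.02 with GSK 690693 and 9.23 with tofacitinib. Id2 read 8.16 with Compound C, 6.96 with doxorubicin and 9.12 with vehicle, Hes1 6.29 with Compound C, 5.27 with doxorubicin and 8.09 with vehicle, and Smad7, the inhibitory SMAD, 7.87 with Compound C, 6.0 with doxorubicin and 8.19 with vehicle. Compound C was below vehicle for each of these genes and doxorubicin lower still, by 3.48-fold in Id3. Tob1, an antiproliferative protein, differed most (-2.69), with Compound C above vehicle. Over the list 9 of 26 members were lower and 2 higher (9 and 0 with the median of all genes taken off), and the median was -0.10. For YAP and SRF targets 14 members lay above 0 and 15 below, with a median of -0.01, whose sign turned under a stricter filter on dim signal. Ajuba (-2.56) and Amotl2 (-1.79) were among 9 members at least 1.5-fold lower, while Ankrd1 read 10.20 with Compound C, 11.25 with doxorubicin and 12.01 with vehicle.

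Genes that p53 is known to activate read lower with doxorubicin than with Compound C. Of 48 members 24 were at least 1.5-fold lower, 4 higher, and the median was -0.58. Cdkn1a, which encodes the cell cycle inhibitor p21, read 11.97 with vehicle, 11.63 with tofacitinib, 11.50 with GSK 690693, 12.10 with Compound C and 11.30 with doxorubicin (1.74-fold lower). Mdm2, the ubiquitin ligase of p53, read 11.72 with Compound C and 9.96 with doxorubicin, against 11.38 with vehicle, 11.12 with GSK 690693 and 11.11 with tofacitinib (3.39-fold lower). In both, Compound C was slightly above vehicle and doxorubicin the lowest of the 5.

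For other members of the list, the Compound C reading lay further from vehicle than the doxorubicin reading did. Polk, a translesion DNA polymerase, read 10.13 with Compound C and 8.11 with doxorubicin, against 8.83 with vehicle, 8.33 with GSK 690693 and 8.79 with tofacitinib; Slc19a2, a thiamine transporter, read 10.42 with Compound C, 8.46 with doxorubicin and 8.92 with vehicle; Gtse1, a regulator of p53 made in S and G2 phase, 10.53 with Compound C, 7.79 with doxorubicin and 9.05 with vehicle; and the death receptor Fas 9.48 with Compound C, 8.42 with doxorubicin and 8.50 with vehicle. Compound C gave the highest of the 5 readings for 26 of the 48 members, and doxorubicin the lowest for 22, against 18.4% and 25.3% of all tested genes. Ndrg1 was the highest member of the list at 0.84, with 0.71 at its other probe set. Plk2, a polo-like kinase, read 10.73 with Compound C, 8.87 with doxorubicin and 10.93 with vehicle, low with doxorubicin alone.

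**Figure D4:**
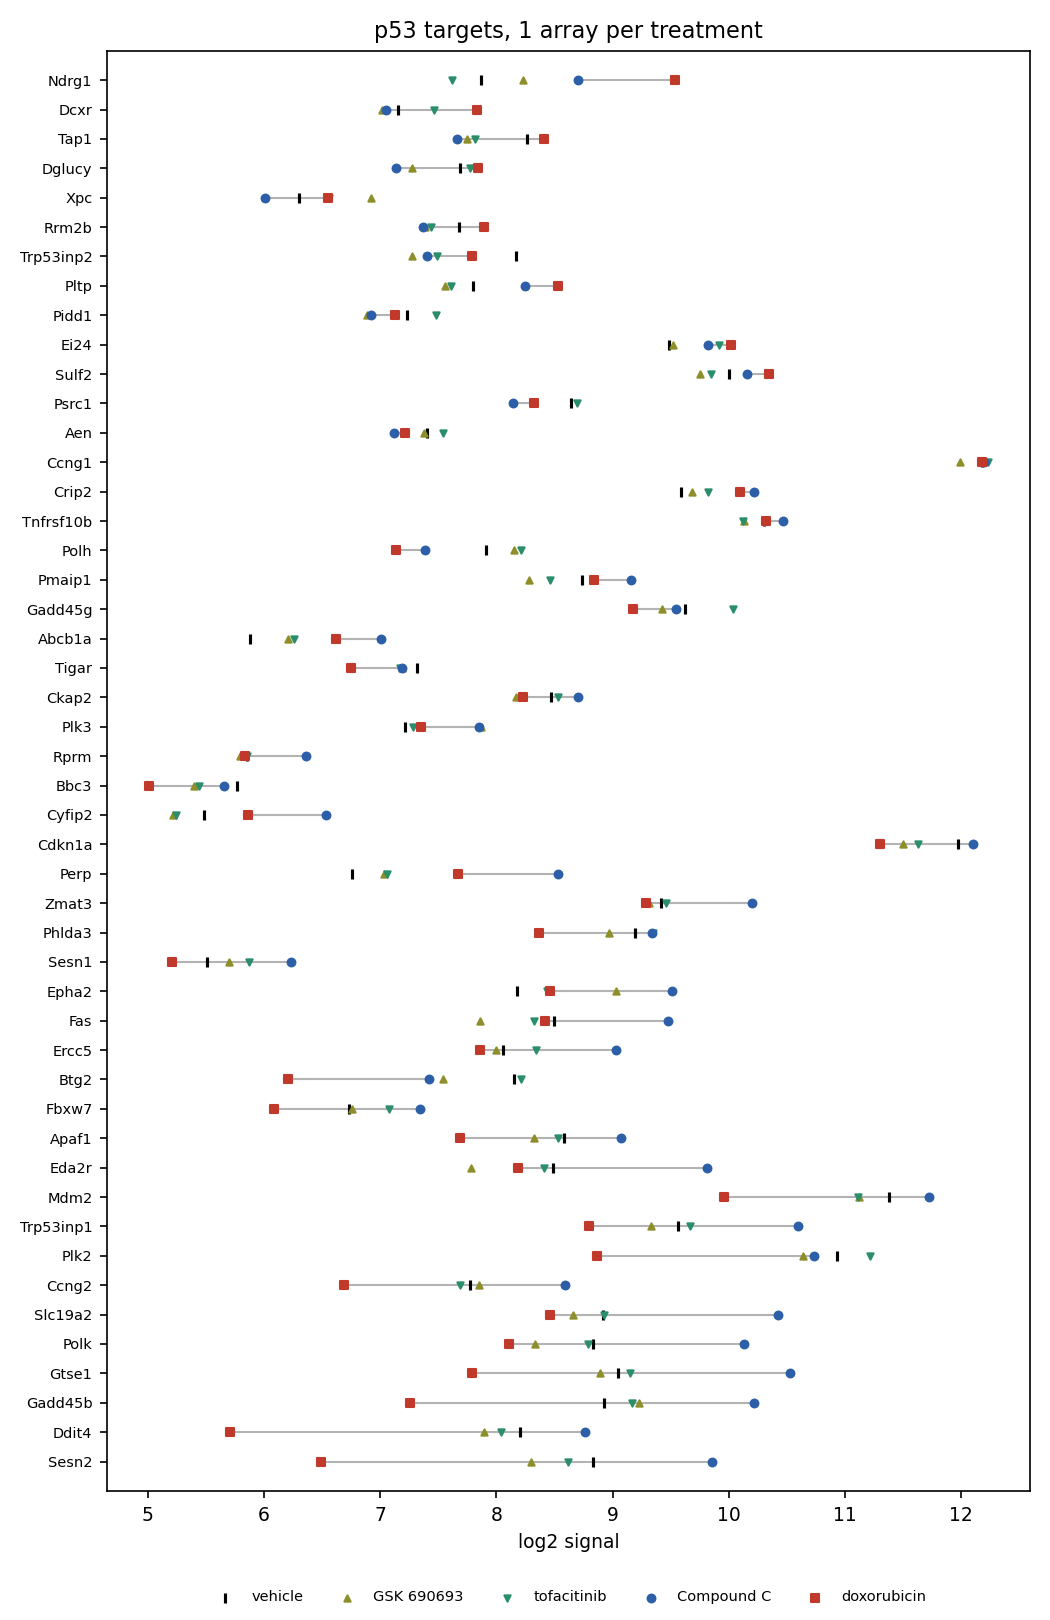
Log2 signal of the 48 tested p53 targets on each array, ordered by the difference between doxorubicin (red squares) and Compound C (blue circles), joined by a grey line; black ticks, vehicle; triangles, GSK 690693 and tofacitinib. Toward the bottom, the blue circles of Sesn2, Gadd45b, Gtse1 and Polk lie to the right of vehicle and the red squares to the left.

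DNA damage and repair genes were divided. Parp2, a sensor of strand breaks, read 7.33 with vehicle, 7.92 with tofacitinib, 7.53 with GSK 690693, 6.04 with Compound C and 7.52 with doxorubicin (2.79-fold higher), Tdp1, which removes trapped topoisomerase I, 6.75 with Compound C, 7.89 with doxorubicin and 7.76 with vehicle, and Xrcc4, of end joining, 5.61 with Compound C, 6.67 with doxorubicin and 5.98 with vehicle. In these genes doxorubicin was near or above vehicle and Compound C below it. Wee1, the kinase that holds back mitosis, read 7.66 with Compound C and 5.01 with doxorubicin, against 7.66 with vehicle, 8.08 with GSK 690693 and 8.06 with tofacitinib (6.28-fold lower), and Rnf168, a ubiquitin ligase at breaks, 8.61 with Compound C, 7.17 with doxorubicin and 8.74 with vehicle. In this pair doxorubicin alone was low. Over 42 members 12 were higher (28.6%) and 8 lower (19.0%), against 15.4% and 14.9% of all tested genes, and the list median was 0.20. Top2a and Top2b, the topoisomerases that doxorubicin traps, differed by 0.12 and -0.10.

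Apoptosis regulators had 8 of 25 members lower, 2 higher (8 and 1 with the median of all genes taken off) and a median of 0.04, whose sign turned under a stricter filter and when the median of all genes was removed. The shares were 32.0% lower and 8.0% higher, against 14.9% and 15.4% of all tested genes. Mcl1, a survival protein of the BCL-2 family, read 9.93 with Compound C and 7.13 with doxorubicin, against 9.59 with vehicle, 9.75 with GSK 690693 and 9.63 with tofacitinib (6.96-fold lower), and its other probe set differed by -1.41. Apaf1, the core of the apoptosome, read 9.07 with Compound C, 7.69 with doxorubicin and 8.58 with vehicle, while Bcl2 read 7.04 with Compound C, 7.77 with doxorubicin and 8.23 with vehicle. Mcl1 and Apaf1 were lowest with doxorubicin, and Bcl2 was lowest with Compound C.

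Cell cycle lists lay close to the median of all genes. Mitosis genes had a median of 0.09, which took the other sign once the median of all genes was removed, with 6 of 59 higher (10.2%) and 9 lower (15.3%). Replication genes had 0.21, with 11 of 54 higher (20.4%) and 8 lower (14.8%), or 6 higher and 11 lower with that median removed. Over all tested genes 15.4% were higher and 14.9% lower. Mitosis genes lay below vehicle with both compounds, with a median difference of -0.45 with Compound C and -0.38 with doxorubicin. Compound C gave the lowest of the 5 values for 31 of the 59 and doxorubicin for 23, against 28.7% and 25.3% of all tested genes. Ccna2, cyclin A, read 8.36 with vehicle, 8.57 with tofacitinib, 8.34 with GSK 690693, 7.68 with Compound C and 6.53 with doxorubicin, and E2f8, a repressor of E2F targets, 7.61 with Compound C, 5.72 with doxorubicin and 8.07 with vehicle. Cenpn, a centromere protein, read 6.47 with Compound C, 7.54 with doxorubicin and 7.70 with vehicle and Prim1, the primase, 5.94 with Compound C, 7.11 with doxorubicin and 7.36 with vehicle, which were low with Compound C alone. Among G1 regulators Ccnd3, cyclin D3, read 8.45 with Compound C, 9.37 with doxorubicin and 8.71 with vehicle, and Cdkn2b, the inhibitor p15, 9.18 with Compound C, 7.95 with doxorubicin and 8.91 with vehicle. Of 60 replication-dependent histone genes listed, 24 had a single-symbol probe set and 11 passed the filter. Of these 11, 5 were lower and 0 higher. These genes are near copies of each other, and their probe sets may not be specific.

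Sterol synthesis genes, which SREBP2 induces when cholesterol is short, differed through both arrays. Hmgcs1, the HMG-CoA synthase, read 11.05 with Compound C and 8.71 with doxorubicin, against 10.03 with vehicle, 10.24 with GSK 690693 and 10.0 with tofacitinib (5.06-fold lower). Insig1, which retains SREBP in the endoplasmic reticulum, read 10.89 with Compound C, 8.69 with doxorubicin and 9.21 with vehicle, and Lpin1, a phosphatidate phosphatase, 9.37 with Compound C, 6.95 with doxorubicin and 7.41 with vehicle. Compound C was the highest of the 5 for these genes and doxorubicin the lowest. Msmo1, Cyp51, Fdft1 and Stard4 differed by -1.76, -1.45, -1.41 and -1.96. Over the list 12 of 34 members were lower and 2 higher (15 and 1 with the median of all genes taken off), and the median was -0.14.

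FOXO and insulin feedback genes were lower as a list, with 18 of 29 lower by 1.5-fold or more, 0 higher and -0.87 as the median. Irs2, an insulin receptor substrate, read 8.01 with Compound C and 5.85 with doxorubicin, against 7.05 with vehicle, 7.65 with GSK 690693 and 6.52 with tofacitinib (4.47-fold lower). Foxo3 read 8.67 with Compound C, 6.37 with doxorubicin and 7.30 with vehicle and Ccng2, an atypical cyclin, 8.59 with Compound C, 6.69 with doxorubicin and 7.77 with vehicle. Txnip, an inhibitor of glucose uptake, read 10.30 with Compound C, 7.65 with doxorubicin and 10.06 with vehicle, and the kinase Sgk1 8.59 with Compound C, 6.23 with doxorubicin and 8.59 with vehicle. Irs2, Foxo3 and Ccng2 were above vehicle with Compound C and below it with doxorubicin, whereas Txnip and Sgk1 were apart from vehicle mainly with doxorubicin.

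Stress-response transcripts of the ATF4 programme had 14 of 44 members lower, 4 higher (15 and 2 with the median of all genes taken off) and a median of -0.12. Atf4 itself read 7.99 with vehicle, 8.21 with tofacitinib, 8.38 with GSK 690693, 9.08 with Compound C and 6.73 with doxorubicin (5.1-fold lower). Ppp1r15a, which reverses eIF2 phosphorylation, read 8.16 with Compound C, 6.0 with doxorubicin and 6.66 with vehicle and Slc38a2, an amino acid carrier, 10.95 with Compound C, 8.93 with doxorubicin and 10.91 with vehicle. The gap was thus large in a minority of members that includes the regulators. In the unfolded protein response 25 of 31 members lay above 0 (median 0.23), where all tested genes had 7414 of 12317. At 1.5-fold 4 were higher and 4 lower (12.9% each, against 15.4% and 14.9% of all tested genes). With the median of all genes taken off, 2 were higher and 4 lower. Among the lower ones, Eif2ak3, the kinase PERK, read 7.95 with Compound C, 6.06 with doxorubicin and 7.11 with vehicle and Herpud1 9.37 with Compound C, 7.51 with doxorubicin and 8.59 with vehicle.

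AMPK genes, whose product Compound C inhibits, had a median of 0.23, and 1 subunit stood apart. Prkaa2, the alpha 2 catalytic subunit, had 8.81 with Compound C and 7.18 with doxorubicin, both above vehicle at 6.16 (3.1-fold lower). Prkaa1, alpha 1, differed by 0.25. Of 13 members 3 were higher, Stradb, Strada and Cab39l, which belong to the LKB1 complex or are related to its subunits, and 1 lower, and with the median of all genes taken off 1 stayed higher. Ulk1, the autophagy kinase downstream of AMPK, read 9.38 with Compound C, 8.63 with doxorubicin and 8.82 with vehicle. The median of lysosome and autophagy genes was 0.14, and 39 of 55 lay above 0. At 1.5-fold 8 were lower (14.5%, close to the 14.9% of all tested genes) and 1 higher (10 and 0 with the median of all genes taken off). The lower ones included Uvrag (-2.17), Atg14 (-1.86) and the folliculin partners Fnip1 (-1.40) and Fnip2 (-1.86).

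Circadian clock genes were nearly all on the Compound C side: 14 of 15 lay below 0, 9 were at least 1.5-fold lower, 0 higher, and the median was -0.89. Cry2, a clock repressor, read 8.37 with Compound C and 5.96 with doxorubicin, against 6.51 with vehicle, 6.79 with GSK 690693 and 6.43 with tofacitinib (5.31-fold lower). Nr1d1, the receptor REV-ERB alpha, read 9.36 with Compound C, 6.98 with doxorubicin and 8.96 with vehicle, Nr1d2 9.11 with Compound C, 7.68 with doxorubicin and 7.94 with vehicle and Per1 9.65 with Compound C, 7.99 with doxorubicin and 8.89 with vehicle. Compound C gave the highest of the 5 readings for 10 of the 15 clock genes and doxorubicin the lowest for 10, against 18.4% and 25.3% of all tested genes. Bhlhe40, a repressor of the clock, read 10.31 with Compound C, 7.60 with doxorubicin and 10.26 with vehicle, low with doxorubicin alone, and Clock itself did not separate the arrays (0.01).

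CACGTG, the E-box that the CLOCK and ARNTL pair binds, was found in 6 of 19 clock-gene windows (31.6%) and in 8.31% of the windows of all tested genes. The match was not particular to clock genes: 15 of 51 lysosome and autophagy windows (29.4%) held it too, in a list with a median difference of 0.14. One of the Per1 starts is printed as an example, with the match in capitals.
Per1, chr11:69098756-69098815, plus strand: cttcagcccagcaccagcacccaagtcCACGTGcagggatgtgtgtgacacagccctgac
Another RefSeq start of Per1 had no match in its window, and neither had Cry2 or Nr1d1, which differed more.

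Several genes of the transcription machinery were lower. Among RNA polymerase II, Mediator and elongation factors 20 of 63 were at least 1.5-fold lower (31.7%) and 9 higher (14.3%), with a median of -0.09. Over all tested genes 14.9% were lower and 15.4% higher. Ccnt2, a cyclin of the elongation kinase P-TEFb, read 8.43 with Compound C and 6.17 with doxorubicin, against 7.37 with vehicle, 7.25 with GSK 690693 and 7.40 with tofacitinib (4.79-fold lower). Ccnt1 read 9.74 with Compound C, 7.85 with doxorubicin and 8.88 with vehicle, Ell, an elongation factor, 8.13 with Compound C, 6.0 with doxorubicin and 6.95 with vehicle, and Cdk13, a kinase of the polymerase tail, 10.41 with Compound C, 8.68 with doxorubicin and 9.86 with vehicle. All 4 were highest with Compound C and lowest with doxorubicin. The splicing kinases Clk1 (-1.75) and Clk4 (-1.63) and the splicing regulator Rbm5 (-1.95) were lower too, in a list whose median was -0.04.

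Numbered zinc finger genes, mostly DNA-binding repressors of the KRAB class, were the longest list and read lower with doxorubicin. Of 254 tested genes 127 were at least 1.5-fold lower, 69 2-fold lower and 6 higher, and the median was -0.58. Zfp281 read 8.23 with vehicle, 7.86 with tofacitinib, 8.33 with GSK 690693, 7.95 with Compound C and 5.56 with doxorubicin (5.24-fold lower), and Zfp84 read 8.21 with Compound C, 5.88 with doxorubicin and 8.27 with vehicle. Doxorubicin was the lowest of the 5 arrays for 185 of the 254 genes, and Compound C the highest for 82, against 25.3% and 18.4% of all tested genes. Their list median was 6.43 with vehicle, 6.38 with Compound C and 5.76 with doxorubicin. Members of this family resemble each other, and 254 of 336 with a single-symbol probe set passed the filter.

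Housekeeping and structural genes sat at or slightly above the median of all genes. Respiratory chain subunits had a median of 0.32 (0.19 after the median of all genes was taken off), with 60 of 67 above 0 and 5 higher and 3 lower at 1.5-fold (2 and 3 after the same step), so the shift was small and shared. Ndufb5, of complex I, read 6.93 with Compound C and 7.72 with doxorubicin, against 6.70 with vehicle, 6.96 with GSK 690693 and 7.13 with tofacitinib, and Cox5a, of cytochrome oxidase, 9.03 with Compound C, 9.80 with doxorubicin and 8.86 with vehicle. Doxorubicin gave the highest of the 5 readings for 55 of them, against 35.7% of all tested genes. Cytosolic ribosomal proteins had a median of 0.13, that of all genes, and doxorubicin was the highest of the 5 for 45 of 55. For collagens and matrix genes the median was 0.27. Of 39 members 6 read higher (15.4%, the same share as over all tested genes) and 1 lower (2.56% against 14.9%). Lum, the proteoglycan lumican, read 6.95 with Compound C and 8.10 with doxorubicin, against 6.30 with vehicle, 6.65 with GSK 690693 and 6.74 with tofacitinib, and Has2, a hyaluronan synthase, 7.68 with Compound C, 8.46 with doxorubicin and 10.26 with vehicle, low with both compounds.

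Further lists, apart from the MYC network, also centred near the median of all genes while holding single members well apart. Ribosome biogenesis genes had 0.14 as median and 7 higher against 13 lower members of 58 (4 and 14 with the median of all genes taken off), among them Nob1, an endonuclease of 18S rRNA (-1.83). Their shares were 12.1% higher and 22.4% lower, against 15.4% and 14.9% of all tested genes. Glycolysis and hypoxia genes had 0.13, from Bhlhe40 at the low end to Pfkm, muscle phosphofructokinase, which read 6.47 with Compound C, 7.55 with doxorubicin and 6.56 with vehicle. Heat shock genes had 0.14, with Dnajb1, a co-chaperone of HSP70, at -1.43 and Fkbp4, of the HSP90 system, at 0.78. NRF2 genes had 0.12, which took the other sign once the median of all genes was removed, and Nfe2l2, which encodes NRF2, read 10.67 with Compound C, 9.46 with doxorubicin and 10.18 with vehicle. The MYC network had a median of -0.28, with 4 of 11 members lower by 1.5-fold or more (36.4% against 14.9% of all tested genes). In it 1 was higher (0 with the median of all genes taken off). Mnt, a repressor that opposes MYC, read 8.02 with Compound C, 6.38 with doxorubicin and 7.11 with vehicle.

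Among genes that handle doxorubicin 6 of 15 read higher and 1 lower, around a median of 0.27. Abcg2, an efflux pump for anthracyclines, read 8.11 with vehicle, 8.46 with tofacitinib, 8.12 with GSK 690693, 7.87 with Compound C and 8.69 with doxorubicin. Abcb1b, a P-glycoprotein gene, read 7.80 with Compound C, 8.45 with doxorubicin and 7.76 with vehicle, and Abcb1a, its relative, 7.01 with Compound C, 6.62 with doxorubicin and 5.88 with vehicle. Nqo1, a quinone reductase of the NRF2 set, read 7.48 with Compound C, 8.25 with doxorubicin and 6.75 with vehicle, above vehicle on both arrays, and Cbr1, a carbonyl reductase that reduces doxorubicin, 8.27 with Compound C, 9.05 with doxorubicin and 8.59 with vehicle. Hmox1, the haem oxygenase that NRF2 also drives, read 11.59 with Compound C and 10.45 with doxorubicin, against 10.48 with vehicle, 11.19 with GSK 690693 and 10.15 with tofacitinib, highest with Compound C.

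**Figure D5:**
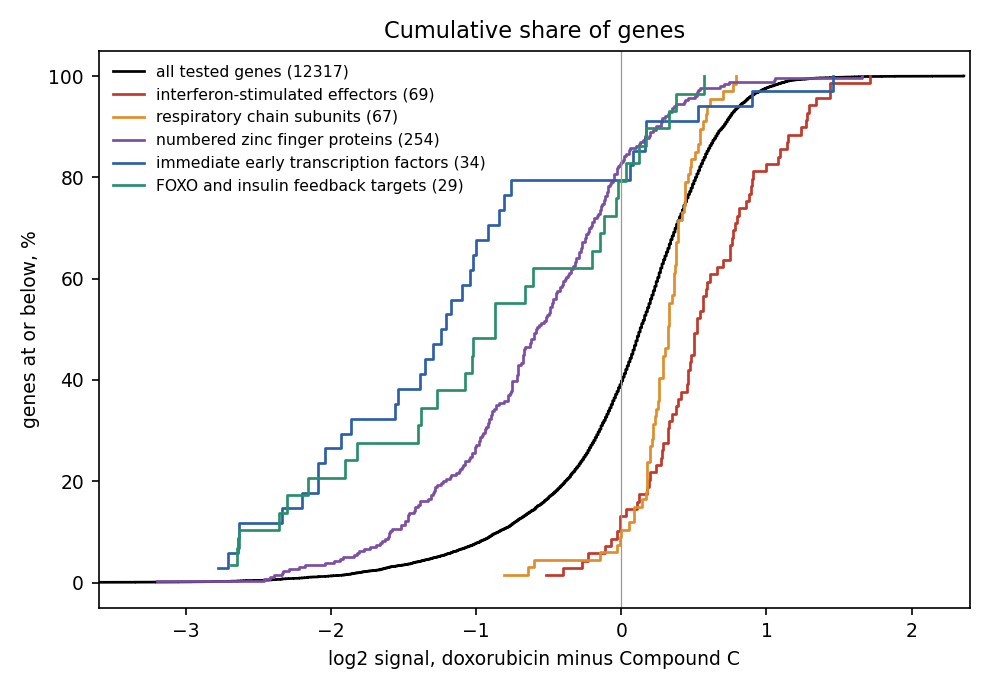
Share of genes (vertical, %) at or below each log2 difference, doxorubicin minus Compound C (horizontal), for all tested genes and 5 lists, with the number of genes in parentheses. Interferon-stimulated effectors (median 0.52) and respiratory chain subunits (0.32) lie to the right of all genes (0.13), while zinc finger genes (-0.58), FOXO targets (-0.87) and immediate early factors (-1.23) lie to the left.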

How the data were processed

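For every probe set the authors deposited a log2 signal on each array; per the submitters' processing notes the software was Affymetrix Expression Console 1.3.1.187, while background correction, normalization and genome build were not given in the sources used here. Log2 as the scale was inferred from the values, which ran from 1.05 to 13.18. If the arrays were quantile-normalized before deposit, a shift of most genes would have been removed. Of 41345 probe sets, 23521 carried 1 symbol, 1814 carried several and were left out, and 16010 were not listed with a gene and were only counted. Entrez identifiers of 23328 of the 23521 were found in RefSeq (GRCm38.p6), which gave current symbols, promoters and miRNA sequences; of 12317 tested genes 9718 had a promoter window. Values were handled with Python 3.11.15, pandas 2.3.3 and numpy 2.4.6, and drawn with matplotlib 3.10.9. No detection call was used, and 1 array per group limits the precision.

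Differences were counted at 2-fold (log2 of 1) and, for list members, at 1.5-fold (log2 of 0.58), and the counting was tested on simulated data. The members and gene lists were chosen with earlier results of these data known. Genes were named by rule: the 15 largest differences each way (2-fold or more, without small RNA genes or genes lacking a descriptive symbol), up to 8 members of each list with the largest difference, all members of lists written as families, and a fixed set of STING, AMPK, topoisomerase and p53 pathway genes. Of 1733 list entries 146 were matched to no single-symbol probe set. A median was given for lists of at least 5 tested members, 36 of 37. Alternatives were centring each array on its median, quantile normalization, no filter, a filter at the 75th percentile, the mean of all probe sets of a gene and, chosen after seeing the data, differences centred on their median.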

Additional observations from a re-analysis of the deposited data

How the results depend on the processing

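Centring each array on its median left 300 higher and 963 lower genes, quantile normalization gave 316 and 945, no filter on dim signal 324 and 1009, and the mean of all probe sets 285 and 924. The filter at the 75th percentile, which tests 6849 genes, gave 194 and 719, and removing the median difference of 0.13 from every gene, an alternative chosen after seeing the data, gave 146 and 1200. Under the stricter filter 7 of 36 list medians moved by more than 0.258, the standard deviation between the 2 closest arrays: MAP kinase phosphatases to -1.56, NF-kB subunits to -0.49, apoptosis regulators to -0.49, cholesterol synthesis to -0.47, clock genes to -1.66, zinc finger genes to -0.89 and histones to -0.83. Under the other settings all 36 list medians stayed within that distance. No list median of at least 0.258 in size changed sign, and neither did any named gene at least 2-fold apart that was still tested. The signs of 3 list medians of at most 0.12 in size turned when differences were centred (NRF2, apoptosis and mitosis genes) and those of 2 under the stricter filter (YAP and SRF, apoptosis). With the mean of all probe sets 6 of 337 named genes moved further than that: Oser1 to -1.68, Socs3 to -1.02, Dusp6 to -1.35, Mcl1 to -2.10, Atr to 0.67 and Car9 to 0.55. No paired analysis was possible because each group is 1 array.

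Dim readings hold an unknown share of background, so folds of dim genes may be understated. Of the 300 higher genes 47 reached the filter with doxorubicin and not with Compound C, 10 of them on no other array, and of the 963 lower genes 153 with Compound C and not with doxorubicin, 28 of them on no other array. Of 81 genes 2-fold apart with a further probe set, 16 were at least 1.5-fold apart the same way at every one.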

Other observations

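Probe sets not listed with a gene were 2-fold apart more often in both directions than those of named genes. Of 16010 probe sets not listed with a gene, 4847 reached the filter, and 567 of these (11.7%) were at least 2-fold lower with doxorubicin against 168 (3.47%) higher, while single-symbol probe sets had 7.74% lower and 2.37% higher. Of 69 tested small nucleolar RNA genes 6 read 2-fold lower and 1 higher, against 7.82% and 2.44% of all tested genes. Their median was 0.02.

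Genes 2-fold lower with doxorubicin had promoters richer in CG dinucleotides than those 2-fold higher. The median count in the 250 bases before the start was 18 over 944 windows of lower genes, 13 over 271 windows of higher genes and 15 over all 12331 windows, and the median GC content was 62.0% for the lower and 57.6% for the higher genes. These are descriptions of the gene sets and were not tested.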
